A study of Caenorhabditis elegans with 6 samples.

Results

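Transcript signals of 10 cuticle collagen genes, dpy-4, dpy-5, dpy-13, dpy-17, sqt-3, rol-6, sqt-1, lon-3, bli-1 and bli-2, were examined in whole Caenorhabditis elegans of 2 genotypes. The genes were chosen as cuticle collagens whose mutants have altered body shape or blistered cuticle, leaving out the collagens of the annular furrows. The 10 genes are among 17118 genes with a probe set of their own. The platform annotation assigned 12 of 22548 probe sets to them alone, with 2 each for sqt-3 and bli-1 and 1 for each other gene, and no probe set listed a member together with another gene. The only probe sets of dpy-4, dpy-5, dpy-13 and sqt-1 carry a suffix that reports sequence in common with other transcripts. So does 1 of the 2 probe sets each of sqt-3 and bli-1. All 12 were bright enough to be tested among 13529 probe sets. The study compared wild-type worms with zip-3(gk3164) mutants, which carry an allele of a bZIP transcription factor gene. Each genotype was profiled on 3 Affymetrix arrays, 6 in all, each labelled a biological replicate, and where these did not come from separate cultures the p-values measure technical spread only. Worms of both genotypes were synchronized with bleach, grown in liquid, given bacteria of the control RNAi and labelled L4, the last larval stage. No strain history of the mutant was given, and 1 allele was used.

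The cuticle of C. elegans is a collagenous matrix that the epidermis secretes anew before each moult. Cuticle collagens are made as procollagens, which are hydroxylated, folded and assembled into trimers in the endoplasmic reticulum. They are then cut by proteases on their way out and crosslinked in the matrix. The collagen genes are transcribed in a timed pulse within each moulting cycle. Depending on the gene, loss or altered forms of single members can shorten the body (Dpy) or lengthen it (Lon). They can also twist it into a roller (Rol, Sqt) or separate the cuticle layers in fluid-filled blisters (Bli). The cuticle made during the L4 stage is that of the adult, in which struts containing BLI-1 and BLI-2 join the cortical and basal layers.

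Values are MAS5 signals on a linear scale. Median signals of the 6 arrays ranged from 123.9 to 139.1, and 3 arrays per genotype limit the precision of every value. The brighter zip-3 probe set read 1204, 1113 and 939.6 in wild-type and 384.6, 458.7 and 233.8 in the mutant, so its groups did not overlap, and the log2 difference was -1.64 ± 0.28 (SE; adjusted p = 0.0717 in limma). The dimmer zip-3 probe set differed by -0.51 ± 0.30 (limma adjusted p = 0.393), and its groups overlapped. Which part of zip-3 the probes cover was not known. Arrays of wild-type correlated with one another at 0.954 to 0.972 across the tested probe sets. Arrays of the mutant did so at 0.890 to 0.956, and arrays of unlike genotype at 0.832 to 0.958. Mutant array 3 correlated with wild-type array 3 at 0.958, with mutant array 1 at 0.925 and with mutant array 2 at 0.890. Adult and reproductive transcripts were bright in samples labelled as larvae. The adult-stage collagen col-19 read 6163 to 9670 in wild-type and 1804 to 5988 in the mutant, and the yolk protein gene vit-6 read 29082 to 34304 and 12787 to 29215. In bulk RNA of whole worms, fewer cells of a type and less RNA per cell cannot be told apart.

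No member passed the adjusted threshold of 0.05 between the genotypes over all 6 arrays. The count was 0 of 12 probe sets in limma, beside 0.133% of all probe sets tested, and their adjusted p-values ran from 0.122 to 0.942. With an unadjusted p below 0.05, 5 of the 12 were higher in the mutant, beside 10.1% of all probe sets, and 2 were lower, beside 9.27%. The mutant and wild-type arrays did not overlap for 4 higher probe sets, those of bli-1, bli-2 and rol-6, beside 14.1% of all probe sets. They did not overlap for 2 lower probe sets, those of dpy-13 and 1 of sqt-3, beside 8.80%. The other 6 overlapped. With each gene taken by its brightest probe set, 8 of 10 log2 differences were positive and the median was 0.67, against 0.03 over the 10369 genes tested. That median was 0.17 without wild-type array 1, 1.05 without wild-type array 3 and between 0.56 and 0.81 without any other single array, and it was 0.99 over the 6 genes with a probe set that carries no suffix for shared sequence.

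**Figure D1:**
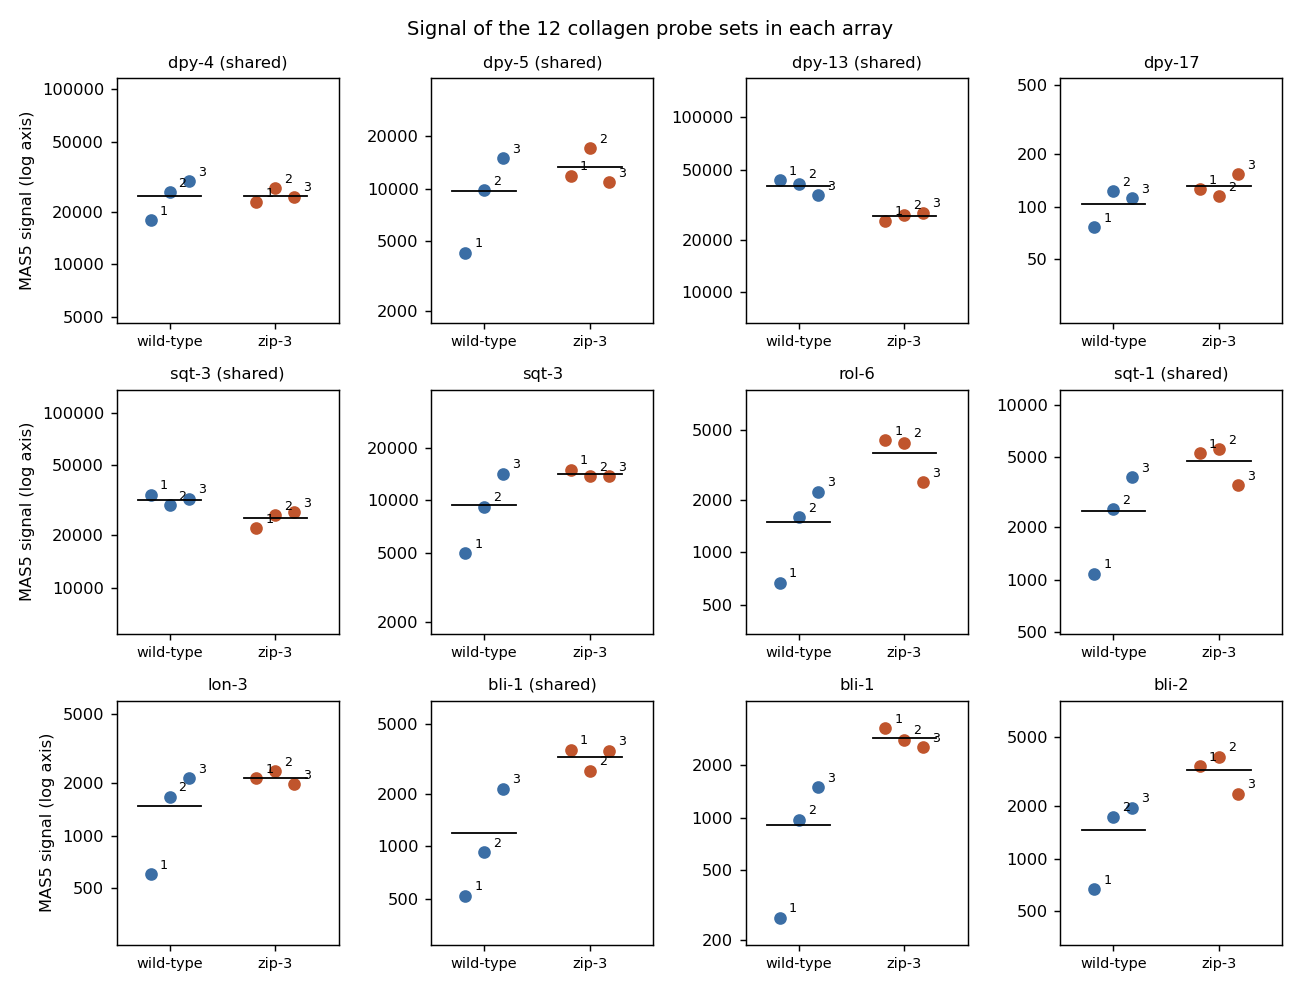
MAS5 signal on a log axis of each of the 12 probe sets in wild-type (blue) and zip-3(gk3164) arrays (orange), with replicate numbers beside the points and the group mean as a bar. "Shared" marks probe sets whose suffix reports sequence in common with other transcripts. Wild-type array 1 is the lowest point in 10 panels, and for dpy-13 and the shared sqt-3 probe set the 3 mutant arrays lie below the 3 wild-type arrays.

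For the strut collagens bli-1 and bli-2 every mutant array was above every wild-type array, and bli-1 had the largest log2 difference among the members. BLI-1 and BLI-2 build the struts of the adult cuticle, and loss of either leaves the layers to separate into blisters. For bli-1, the probe set without a shared suffix read 268.4, 973.5 and 1492 in wild-type arrays 1, 2 and 3 and 3272, 2800 and 2544 in mutant arrays 1, 2 and 3. Every mutant array thus lay above every wild-type array, while wild-type array 1 lay far below the other wild-type arrays. Mean signals were 911.3 ± 614.2 for wild-type and 2872 ± 369.2 for the mutant (SD, 3 arrays each), and the log2 difference was 1.97 ± 0.57 (SE), with a 95% interval from 0.65 to 3.29 (limma adjusted p = 0.174). The second bli-1 probe set, whose suffix reports shared sequence, read 523.1, 924.7 and 2143 in wild-type and 3573, 2723 and 3526 in the mutant. Its groups did not overlap either, and its log2 difference was 1.68 ± 0.46 (adjusted p = 0.163). The difference between the bli-1 probe sets in their genotype difference was 0.28, with values of single arrays overlapping (two-sided exact permutation test, p = 0.50).

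bli-2 had a smaller difference than bli-1. It read 669.8, 1740 and 1952 in wild-type and 3385, 3841 and 2359 in the mutant. All mutant arrays were above all wild-type arrays, with mutant array 3 closest to them. The log2 difference of bli-2 was 1.25 ± 0.41, with a 95% interval from 0.29 to 2.21 (limma adjusted p = 0.189). bli-1 exceeded bli-2 in its genotype difference by 0.72 on the log2 scale, and this was not told apart from 0 in a two-sided exact permutation test (p = 0.20). Without wild-type array 1, the log2 differences were 1.24 and 1.21 for the bli-1 probe sets and 0.76 for bli-2.

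The roller collagens rol-6 and sqt-1 had log2 differences to either side of that of bli-2. Both encode cuticle collagens that interact genetically, and altered forms of either can make the worm rotate around its long axis as it moves. rol-6 read 667.7, 1582 and 2214 in wild-type and 4365, 4228 and 2513 in the mutant. Its mutant arrays were all above its wild-type arrays, with mutant array 3 near wild-type array 3. The log2 difference of rol-6 was 1.44 ± 0.44, with a 95% interval from 0.41 to 2.47 (limma adjusted p = 0.180). sqt-1 read 1079, 2520 and 3847 in wild-type and 5301, 5554 and 3462 in the mutant, so that mutant array 3 fell below wild-type array 3 and the groups overlapped. The log2 difference of sqt-1 was 1.09 ± 0.44, with a 95% interval from 0.06 to 2.13 (adjusted p = 0.239). Without wild-type array 1 the differences were 0.94 for rol-6 and 0.59 for sqt-1.

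Within wild-type, rol-6 and sqt-1 kept nearly the same ratio. Their log2 ratio relative to its wild-type mean was 0.03, 0.05 and -0.08 in wild-type arrays 1, 2 and 3 and 0.44, 0.33 and 0.26 in the mutant arrays. Every mutant array was therefore higher in rol-6 relative to sqt-1 than any wild-type array. The ratio differed by 0.34 between genotypes (two-sided exact permutation test, p = 0.10, the smallest p that 3 arrays against 3 allow). In that test p was 0.20 after Benjamini-Hochberg adjustment over the 6 pairs of probe sets compared. These pairs were chosen with earlier results of these data known, and the adjustment does not cover that choice. The same ratio of rol-6 to lon-3 differed by 0.70, with no overlap between genotypes and the same p-values.

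lon-3, dpy-5 and dpy-17 overlapped between the genotypes. lon-3 encodes a collagen whose loss makes worms longer and whose dose affects body length. It read 599.4, 1672 and 2134 in wild-type and 2124, 2341 and 1972 in the mutant. Only wild-type array 1 stood apart from the other 5 arrays, and the log2 difference of 0.73 ± 0.44 (limma adjusted p = 0.397) was 0.18 without that array. dpy-5, which encodes a procollagen needed for normal body length, read 4296, 9846 and 14931 in wild-type and 11887, 17075 and 10904 in the mutant. Wild-type array 3 was above 2 of the mutant values, and the dpy-5 difference of 0.60 ± 0.43 (adjusted p = 0.480) was 0.10 without wild-type array 1 and 1.00 without wild-type array 3. dpy-17, whose product is a genetic partner of SQT-3, was dim, at 76.68, 123.2 and 111.7 in wild-type and 126.5, 114.9 and 154.3 in the mutant. Its log2 difference was 0.36 ± 0.28, with a 95% interval from -0.28 to 1.01 (adjusted p = 0.516), and it was 0.16 without wild-type array 1.

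The probe sets annotated to sqt-3 pointed in opposite directions. sqt-3 encodes a collagen needed from embryonic development on, and its procollagen is a substrate of the DPY-31 protease. The probe set without a shared suffix read 4959, 9178 and 14173 in wild-type and 14955, 13703 and 13766 in the mutant. The mutant arrays were close together at the level of wild-type array 3, and wild-type arrays 1 and 2 were lower. Its log2 difference was 0.71 ± 0.34, with a 95% interval from -0.09 to 1.51 (limma adjusted p = 0.303), and it was 0.31 without wild-type array 1 and 1.07 without wild-type array 3. The probe set with a shared suffix read 33940, 29572 and 32204 in wild-type and 21808, 25976 and 26906 in the mutant. Every mutant array was below every wild-type array there, and this probe set differed by -0.36 ± 0.13 on the log2 scale (adjusted p = 0.206), or by -0.20 after quantile normalization between arrays. The log2 ratio of the unsuffixed to the suffixed probe set was higher by 1.07 in the mutant, with no overlap between genotypes. In a two-sided exact permutation test p was 0.10, or 0.20 adjusted over the 6 pairs, which were chosen with earlier results known. Averaging both gave 0.17 ± 0.19 (adjusted p = 0.654), so the direction stated for sqt-3 depends on which probe set is read.

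dpy-13 was the member with the smallest p. DPY-13 is a collagen of the annuli, the ridges between furrows, and its loss shortens the body. dpy-13 read 43703, 41810 and 35911 in wild-type and 25643, 27814 and 28453 in the mutant, which placed all mutant arrays below all wild-type arrays. Its means were 40474 ± 4064 for wild-type and 27303 ± 1473 for the mutant (SD, 3 arrays each), and the log2 difference was -0.56 ± 0.12, with a 95% interval from -0.85 to -0.28 (limma adjusted p = 0.122). After quantile normalization the dpy-13 difference was -0.37 (adjusted p = 0.187). dpy-4, another collagen needed for normal body length, read 17869, 25761 and 29939 in wild-type and 22586, 27191 and 24261 in the mutant. These overlapped fully, with a log2 difference of 0.04 ± 0.20 and a 95% interval from -0.43 to 0.51 (adjusted p = 0.942). Centring each array on its median turned the sign for dpy-4.

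The suffixed probe sets of dpy-13, dpy-4 and sqt-3 were among 180 with a mean signal of at least 20000. Of these 180, 141 were lower in the mutant mean, whereas 54.2% of all probe sets tested were higher. The median log2 difference of the 180 was -0.07 and the range ran from -1.31 to 0.67. Sperm and yolk genes of the lists given below, such as msp-31 at -1.13 and vit-5 at -0.73, were among the more negative. In 38 of the 180, or 21.1%, the mutant arrays were all below the wild-type arrays, beside 8.80% of all probe sets. Log2 differences beyond 1 in either direction occurred in 7 of the 180, against 1623 of all 13529 tested. Among the 180 were 20 probe sets annotated to 1 named cuticle collagen gene, the 3 member probe sets included. Of these 20, 18 were negative, from -0.97 for col-122 to -0.02 for col-73, and 19 carried a suffix for shared sequence. Bright probe sets without a single named gene were left out of that count. The highest signal on any array was 47460. Whether such bright probe sets respond to their transcripts in proportion, and which other collagens add to the suffixed ones, was not tested.

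**Figure D2:**
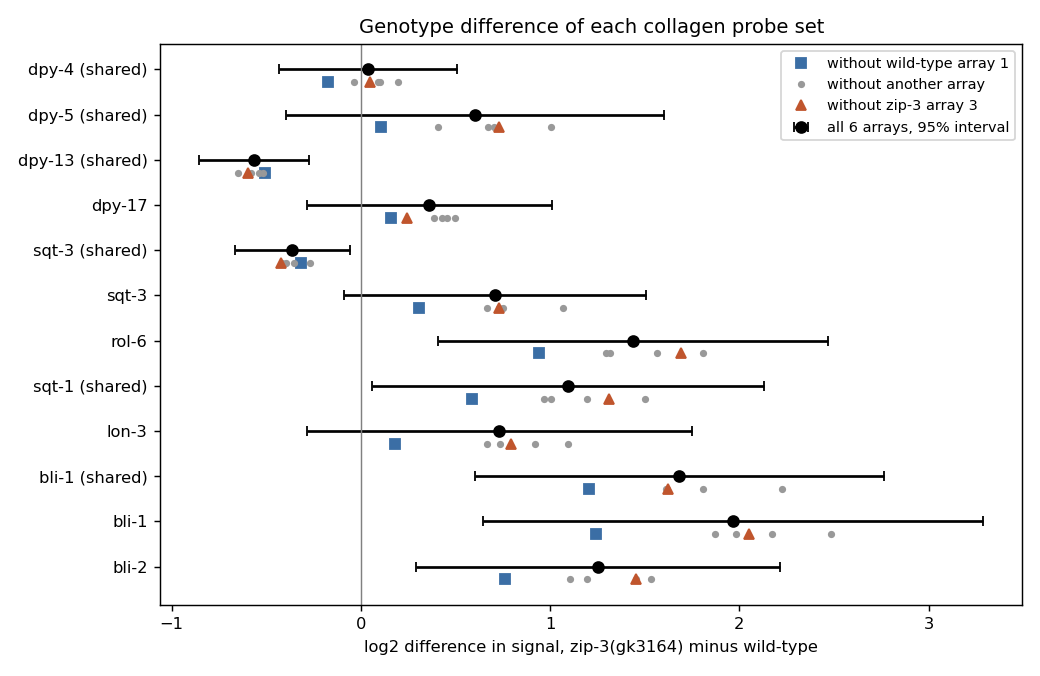
Log2 difference in signal, mutant minus wild-type, of each probe set with its limma 95% interval (black), and the same difference with each array left out in turn (blue square without wild-type array 1, orange triangle without mutant array 3, grey without another). Leaving out wild-type array 1 brings lon-3 to 0.18 and dpy-5 to 0.10, whereas bli-1 is at 1.24 and 1.21.

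The wild-type arrays differed more among themselves than the mutant arrays did for nearly all of these collagens. In 11 of 12 probe sets the ratio of the highest to the lowest array was larger in wild-type than in the mutant, which held for 34.5% of all probe sets tested. Between the highest and the lowest wild-type array, bli-1 differed 5.56-fold, its suffixed probe set 4.10-fold, sqt-1 3.57-fold, lon-3 3.56-fold, dpy-5 3.48-fold, rol-6 3.32-fold, bli-2 2.91-fold and the unsuffixed sqt-3 probe set 2.86-fold. Those 8 lay in the top 10% of wild-type ranges, where the median over all probe sets was 1.35-fold. In the mutant none of the 12 lay in the top 10%, with ranges from 1.09-fold for the unsuffixed sqt-3 probe set to 1.74-fold for rol-6, beside a median of 1.53-fold over all probe sets. dpy-13 and the suffixed sqt-3 probe set varied little in wild-type, at 1.22-fold and 1.15-fold. Wild-type array 1 was the lowest of the 6 arrays in 10 of 12 probe sets, against 18.2% of all probe sets.

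**Figure D3:**
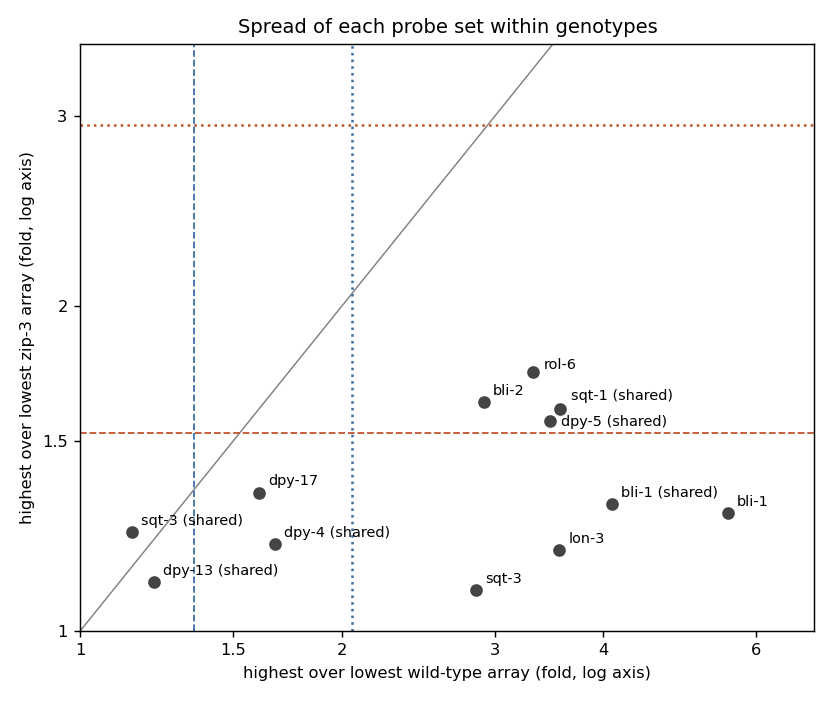
Ratio of the highest to the lowest array within wild-type (x axis) and within zip-3(gk3164) (y axis) for each probe set, both on log axes. The grey line marks equal ranges, and dashed and dotted lines mark the median and the 90th percentile over all tested probe sets, 1.35-fold and 2.06-fold in wild-type and 1.53-fold and 2.94-fold in the mutant. The suffixed sqt-3 probe set is the one point above the grey line.

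Array by array, the median of the collagens of body shape and blisters in the mutant stood near wild-type array 3, while single members differed. The median over the 10 genes, relative to the wild-type mean on the log2 scale, was -0.96, 0.20 and 0.65 in wild-type arrays 1, 2 and 3 and 0.60, 0.93 and 0.61 in mutant arrays 1, 2 and 3. Single members departed from that median. Every mutant array lay above every wild-type array for bli-1, bli-2 and rol-6, and below every wild-type array for dpy-13 and the suffixed sqt-3 probe set. The furrow collagens, which form the circumferential grooves of the cuticle, had medians with a different placing. Their medians over the 5 tested genes were -0.63, 0.18 and 0.46 in wild-type and 2.23, 2.21 and 1.71 in the mutant, so every mutant array was above every wild-type array. The median log2 difference of the furrow collagens was 1.98, and 1.84 without wild-type array 1. None of dpy-2, dpy-3, dpy-7, dpy-8 and dpy-9 passed on its own (limma adjusted p = 0.0545 to 0.0920). No test was made of the difference between the furrow collagens and the 10 genes.

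Of 5 further collagens known for body-shape phenotypes, 3 were tested and all 3 were positive, with a median of 0.95, or 0.56 without wild-type array 1. rol-8 had a log2 difference of 0.97 ± 0.36 (limma adjusted p = 0.214), sqt-2 of 0.95 ± 0.38 (0.232) and rol-1 of 0.32 ± 0.59 (0.812). rol-1 read 433.4, 1273 and 2709 in wild-type and 1157, 1506 and 1681 in the mutant, so that wild-type array 3 was above all mutant arrays. The 4 tested adult-stage collagens, col-19, col-38, col-49 and col-63, had medians of -1.14, 0.14 and 0.96 in the wild-type arrays and 0.02, 0.43 and 0.11 in the mutant. In wild-type, col-63 read 1782, 4258 and 10701, while col-19 ran the other way, at 9670, 8544 and 6163. The log2 difference was -1.25 ± 0.41 for col-19 (adjusted p = 0.189) and 0.71 ± 0.56 for col-63 (adjusted p = 0.533), and 0 of the 4 passed. The median difference of these 4 was 0.18 over all arrays, -0.39 without wild-type array 1, 0.67 without wild-type array 3 and 0.060 when mutant array 2 was left out.

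**Figure D4:**
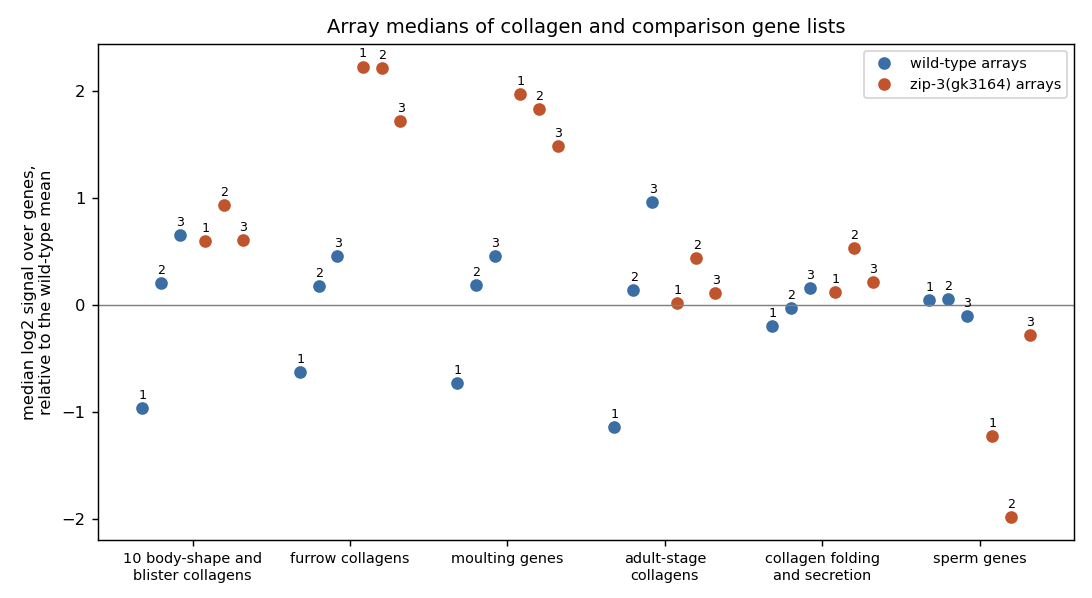
Median log2 signal over the genes of each list in each array, relative to the mean of the wild-type arrays, with replicate numbers above the points. For the 10 collagens the mutant arrays sit at 0.60 to 0.93, close to wild-type array 3 at 0.65, while for the furrow collagens and moulting genes they sit above all wild-type arrays and for the sperm genes below them.

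Genes that fold, modify and export collagens had a small median difference. Of 19 tested, 15 were positive, with a median log2 difference of 0.14, and 0 passed the adjusted threshold, beside 0.154% of all genes. The median was 0.015 with 11 of 19 positive without mutant array 2, 0.062 when wild-type array 1 was left out and 0.23 when mutant array 3 was. At an unadjusted p under 0.05, 4 were higher, beside 9.87% of all genes, and 0 lower, beside 10.1%. The 3 genes with the largest statistics, cyn-6, fkb-5 and fkb-3, encode peptidyl-prolyl isomerases of the endoplasmic reticulum, as does cyn-5, which differed by 0.05 ± 0.15 and was named after its value was seen. fkb-5 read 1095, 2677 and 3579 in wild-type and 5632, 7899 and 7420 in the mutant, which differed by 1.66 ± 0.41 on the log2 scale (limma adjusted p = 0.149). cyn-6 differed by 1.18 ± 0.24 (0.102) and fkb-3 by 1.04 ± 0.41 (0.232). fkb-3 read 1038, 2578 and 3351 in wild-type and 3927, 5369 and 3736 in the mutant, with the lowest value again in wild-type array 1.

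Of 11 tested genes listed for procollagen cutting and its inhibition, 10 were positive with a median of 0.35, and 0 passed. Among all 10369 genes, 5475 were positive. Leaving out wild-type array 2 brought the list median to 0.21, and leaving out wild-type array 3 to 0.78. Without wild-type array 1 it was 0.24, with 7 of 11 positive. dpy-31, the astacin protease that processes SQT-3, read 214.7, 239.3 and 270.3 in wild-type and 408.8, 446.4 and 445.4 in the mutant. Its wild-type arrays were close together and all below the mutant arrays, and dpy-31 differed by 0.85 ± 0.19 (limma adjusted p = 0.130). The proprotein convertase gene kpc-1 differed by 0.90 ± 0.23 (0.155), and noah-1, a matrix protein gene that the list also held although it is no protease, by 1.97 ± 0.32 (0.0713). Among 8 tested crosslinking genes 5 were positive, the median was 0.10 and 0 passed, with a median of 0.062 without wild-type array 1 and 0.20 without wild-type array 3. The tyrosinase gene tyr-1 differed by 1.09 ± 0.27 (0.149), and the peroxidase genes skpo-2 and skpo-1 by 1.20 ± 0.54 (0.279) and -1.53 ± 0.71 (0.287).

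The Sma/Mab pathway sets body length through the ligand DBL-1 and acts on cuticle collagen genes. Of 13 tested genes listed for body size signalling 12 were positive, with a median log2 difference of 0.54, and 6 had an unadjusted p under 0.05, all higher, beside the 9.87% of all genes given above, while 0 passed the adjusted threshold. The ligand gene dbl-1 read 94.81, 82.39 and 108.7 in wild-type and 169.6, 166.4 and 171.7 in the mutant and differed by 0.84 ± 0.23 (limma adjusted p = 0.159). kin-29, which encodes a kinase that affects body size, differed by 0.70 ± 0.19 (0.162) and sma-9, a transcription cofactor gene of the pathway, by 0.56 ± 0.18 (0.188). Of 14 tested genes listed as epidermal transcription factors 12 were positive with a median of 0.92. Of these 14, 10 had an unadjusted p under 0.05, all higher, beside the same share of all genes, and 0 passed. On this list nhr-25, nhr-23, myrf-1 and bed-3 are shared with the moulting genes given below. The list for procollagen cutting shares noah-1, nas-36 and nas-37 with them, so these lists are not independent. The nuclear receptor genes nhr-25 and nhr-91 differed by 1.74 ± 0.24 (0.0545) and 1.35 ± 0.25 (0.0895), and myrf-1, which encodes a membrane-bound transcription factor needed for moulting, by 2.38 ± 0.45 (0.0909).

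Markers of the moulting cycle and of other tissues also differed between the arrays. All 20 moulting genes were tested and all were positive, the list median was 1.75, and 4 of them, let-653, lpr-1, mlt-11 and lpr-3, rose at the adjusted threshold, beside 0.154% of all genes. No moulting gene passed with the replicate number as a block or without any single array other than mutant array 3. Without mutant array 3, 12 passed, beside 15.9% of all probe sets. The summed signal of the 20 moulting genes was 5719 to 13601 in wild-type and 26839 to 36918 in the mutant. It was lowest in wild-type array 1, as for 10 of the 12 collagen probe sets. Epidermal attachment and surface genes had a median of 0.41 with 8 of 10 positive, and summed signals of 11999 to 16829 in wild-type and 16382 to 18615 in the mutant. The epidermal genes rol-3, dlg-1 and che-14 differed by 1.33 ± 0.23 (limma adjusted p = 0.0760), 1.11 ± 0.24 (0.114) and 1.13 ± 0.30 (0.157). Body wall muscle markers had a median of 0.25 with 10 of 11 positive, and summed signals of 84620 to 112595 and 86463 to 120481. Leaving out wild-type array 2 or mutant array 3 brought the muscle median to 0.14, leaving out wild-type array 3 to 0.44 and leaving out mutant array 1 to 0.39. Without wild-type array 1, or without mutant array 3, 7 of 11 were positive. unc-22, myo-3 and tni-1, all muscle structure genes, differed by 1.28 ± 0.29 (0.136), 0.91 ± 0.31 (0.193) and 0.55 ± 0.28 (0.335).

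Reproductive transcripts had lower levels in the mutant than in wild-type without passing the adjusted threshold, and mutant array 2 was the lowest for each list. Without it the medians were -0.77 for sperm genes, -0.49 for oocyte and germline genes and -0.35 for yolk genes, and without mutant array 3 the yolk median was -1.11. All 32 tested sperm genes were negative, with a median of -1.20 and summed signals of 507614 to 577676 in wild-type and 155619 to 443557 in the mutant. ssp-10, ssp-16 and msd-2, genes of small sperm proteins, differed by -1.63 ± 0.41 (limma adjusted p = 0.149), -1.61 ± 0.41 (0.154) and -1.60 ± 0.42 (0.157). For 28 of 28 genes of oocytes and the germline the difference was negative, their median was -0.92 and the sums were 37922 to 56829 and 15572 to 45924. pgl-1, pie-1 and htp-1 differed by -0.95 ± 0.30 (0.181), -1.29 ± 0.41 (0.184) and -0.74 ± 0.27 (0.208). All 5 tested yolk genes were negative, with a median of -0.73 and sums of 106726 to 136598 and 40854 to 119697, and vit-6, vit-4 and vit-5 differed by -0.68 ± 0.28 (0.244), -0.69 ± 0.30 (0.262) and -0.73 ± 0.34 (0.294). No gene on these lists was at 0 in any array, but MAS5 signals stay above 0 by construction and no detection calls were used. Presence of a transcript was therefore not tested. The part that the stage of the moulting cycle or the share of each tissue plays in the collagen differences was not tested.

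Without mutant array 3, 2 of 12 member probe sets passed the adjusted threshold, beside 15.9% of all probe sets. These were dpy-13 at -0.59 (limma adjusted p = 0.0278) and rol-6 at 1.69 (0.0469). With array weights 8 of 12 passed, beside 35.0% of all probe sets, in a fit that gave mutant array 1 a weight of 5.89 and mutant array 3 a weight of 0.267. Of the 12, those of dpy-4, dpy-5, dpy-17 and lon-3 did not pass there. Without any other single array 0 of the 12 passed.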

How the data were processed

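The authors deposited 1 linear intensity per probe set for each of 6 Affymetrix arrays. The submitters' processing notes name MAS5 and Affymetrix Expression Console, with versions not given in the sources used here. The labels' protocols give total RNA from whole worms, amplified by 3' in vitro transcription into biotin-labelled cRNA. MAS5 subtracts mismatch signal, so dim probe sets are noisy. Trimmed means of the arrays were equal, as after MAS5 scaling, and no detection calls or scanner files were used.

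Of 22625 probe sets 77 were controls. Signals were taken to log2 with no constant, and 13529 probe sets with a mean log2 at or above the 40th percentile (a signal of 68.7) were tested with limma 3.58.1 in R 4.3.3, on genotype with trended variance. Tests were two-sided, p-values were adjusted by the Benjamini-Hochberg method over all tested, and the threshold was 0.05. Intervals are limma's 95% intervals, and the fit was tested on simulated data. The annotation named 1 gene for 20766 probe sets, several for 887 and none for 895, and 20701 matched the gene table of WBcel235. In the lists a gene is its brightest tested probe set. Alternatives changed the offset, filter, centring, quantile normalization, variance model, array weights, replicate block, choice or mean of probe sets and the arrays included. Pairs of probe sets were compared by exact permutation tests over the 6 arrays.

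Named were all members, zip-3, of each list the genes past the threshold or else up to 3 with the largest statistic, and per member probe set the nearest genes in profile. The members, lists and pairs were chosen with earlier results of these data known.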

Additional observations from a re-analysis of the deposited data

How the results depend on the processing

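Over 16 alternatives, 173 of 187 differences of single members kept their direction and side of the threshold, 10 newly passed and 4 turned in sign. All 4 turns were of dpy-4, which was -0.0073 with array weights, -0.021 with arrays centred on their medians and -0.17 to 0.20 with single arrays left out. The number of member probe sets that passed was 8 with array weights and 0 to 2 with single arrays left out. The genes of all lists that passed numbered 4 in the main fit, beside 0.154% of all genes. They numbered 118 with array weights, where 35.0% of all probe sets passed. They numbered 8 with an offset of 16, 2 with a filter at the 60th percentile and 2 with the mean of the probe sets of a gene. With the replicate block 0 passed, and with single arrays left out 0 to 84. The highest count was without mutant array 3, where 15.9% of all probe sets passed. Other causes of these shifts were not tested. No pairing by replicate number was seen: deviations of same-numbered arrays from their group means correlated at 0.016, 0.050 and -0.16. Arrays with unlike numbers correlated at -0.30 to 0.25, and 3 arrays per group are too few to test for a shared batch. With the replicate block 0 member probe sets passed, as in the main fit. The median over the 10 genes was 0.17 to 1.05 with single arrays left out, and 0.72 and 0.99 under 2 choices of unsuffixed probe sets made after seeing the data. Dim signal limits dpy-17.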

Other observations

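Genes outside the members were ranked by how closely their log2 values, centred on their own mean over the 6 arrays, followed each member probe set, as a root mean square difference. The arrays are shared by all genes compared, so a close profile describes these 6 arrays and no relation between the genes. The difference was not scaled to how much a probe set varied, so probe sets that varied little have small values. The nearest to dpy-13 were warf-1 at 0.025 and T21D12.12 at 0.039, and to dpy-4 swt-5 at 0.047 and Y43F8C.11 at 0.076. Next to dpy-5 stood cut-2, a cuticlin gene, at 0.073 and C02E7.6 at 0.087. The suffixed bli-1 probe set was followed by K08E7.5 at 0.074 and by acn-1, a gene needed for moulting, at 0.18. The unsuffixed bli-1 probe set was followed by H42K12.3 at 0.16 and mam-4 at 0.22, and bli-2 by Y46G5A.29 and chw-1 at 0.13 each. For rol-6 the nearest were T03D8.6 at 0.11 and dyf-4 at 0.14, for sqt-1 Y53F4B.27 at 0.11 and spr-3 at 0.12, and for lon-3 F01D5.6 and slcf-2 at 0.13 each. For the unsuffixed sqt-3 probe set they were nssp-44 at 0.079 and ptr-1, a patched-related gene, at 0.094, for the suffixed one pqn-52 at 0.062 and T11G6.3 at 0.066, and for dpy-17 F25G6.1 at 0.074 and nlp-99 at 0.081. None of these genes passed the adjusted threshold.

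Among the members themselves, the smallest difference was between dpy-13 and the suffixed sqt-3 probe set, at 0.15. Then came bli-2 with sqt-1 and with rol-6 at 0.16 each, and dpy-5 with lon-3 at 0.17. The root mean square deviation from the own mean was 0.30 for dpy-13 and 0.21 for the suffixed sqt-3 probe set. It was 0.80 for sqt-1, 0.82 for bli-2 and 0.92 for rol-6, so the differences among these were smaller relative to their variation. The unsuffixed sqt-3 probe set was nearer to lon-3, at 0.19, and to dpy-5, at 0.24, than to the other sqt-3 probe set.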
